A study of Mus musculus with 48 samples.

Results

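PPARγ, the product of Pparg, is a nuclear receptor that pairs with RXR and switches on genes for taking up fatty acids and storing them as triglyceride in lipid droplets. It is best known from adipocytes, where it drives the storage programme. Hepatocytes normally hold little of it, and in fatty liver it rises and turns on adipocyte-type storage genes there. The comparison described here asked what the livers of male mice with diet-induced steatohepatitis expressed after Pparg was targeted in hepatocytes.

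The livers were the 12 of 48 in the series whose sample titles mark males on the HFCF diet, 6 labelled knockout and 6 control. All were adult males carrying a floxed Pparg gene. All were fed a high fat (HF) diet, D12492, for 18 weeks and then D16010101, the HFCF diet high in fat, cholesterol and fructose, for 16 weeks. After 16 of the 18 weeks on the HF diet, before the HFCF diet began, the labelled knockouts were given AAV8-TBG-Cre. This is an adeno-associated virus whose hepatocyte promoter drives Cre recombinase. The controls were given AAV8-TBG-null. Both groups therefore carried the floxed allele and received a virus. Another 12 males that stayed on the HF diet, with the same viruses, served to test whether effects differed between the diets. Each library came from whole liver, so the RNA of hepatocytes, macrophages, stellate cells and bile duct cells was measured together. Fewer cells of a type and less RNA per cell cannot be told apart in such samples.

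Reads on genes ranged from 15636810 to 20934169 per library, and 14685 of 26122 listed genes had enough reads to be tested. Levels are read counts scaled per 1e6 reads by TMM library size (CPM), and called genes are those with an adjusted p under 0.05 in edgeR's quasi-likelihood test. A log2 change is labelled knockout minus control. Of the 7 hepatocyte markers, 6 were listed and summed to between 42690 and 71090 CPM, while Adipoq and Lep, which define adipocytes, were not among the listed genes. Control 1 and labelled knockout 6 stood apart from the other 10 livers. Markers of monocytes and lipid-associated macrophages (9 genes) summed to 268 CPM in control 1 and 762 to 889 CPM in the other controls. In labelled knockout 6 they summed to 385 CPM, against 562 to 911.1 CPM in the other 5 labelled knockouts. Markers of stellate cells and fibroblasts (9 genes) summed to 693 and 695 CPM in these 2 livers and to between 961.9 and 1348 CPM in the other 10. Results that rest on control 1 are given with and without it.

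**Figure D1:**
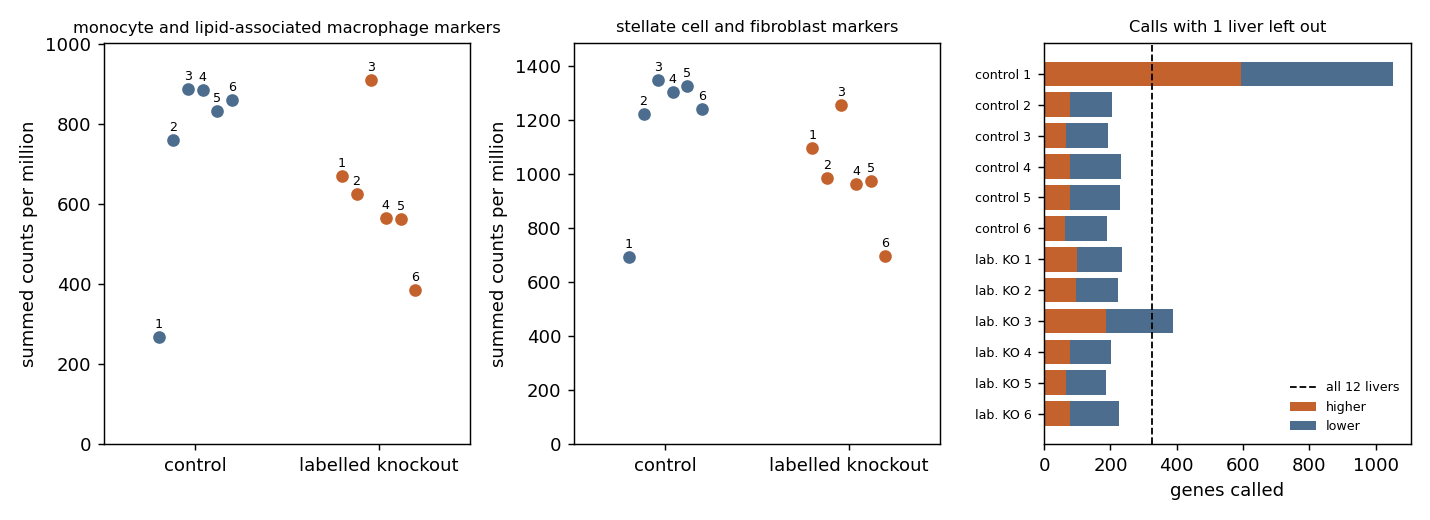
Left and middle, summed CPM of the macrophage and the fibroblast markers, with 1 point per liver and its replicate number above it. Right, genes called with each liver left out, with bars split into genes higher and lower in labelled knockouts and the dashed line at the 324 called with all 12 livers; control 1 is the lowest macrophage point at 268 and its omission gives 1052 calls.

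Pparg itself was higher in the labelled knockouts, not lower. Pparg (ENSMUSG00000000440, GRCm38 chromosome 6, 115360951 to 115490399) measured 28.1 CPM in the lowest control, 34.2 in the median and 42.7 in the highest. Pparg in the labelled knockouts ran from 52.4 through a median of 60.7 to 69.7 CPM. The groups did not overlap. The means were 35.0 ± 5.98 CPM (SD, n = 6) and 61.1 ± 6.68 CPM (n = 6), a log2 change of 0.81 (SE 0.11, adjusted p = 0.000805). The 2-sided exact permutation p was 0.002165, the smallest that 6 against 6 livers allow. Gene-level counts sum all exons and do not show whether the floxed part was present in the RNA. The labels are used below as given, with the word labelled.

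Across all genes, 324 of 14685 (2.21%) were called, 137 higher (0.933%) and 187 lower (1.27%) in the labelled knockouts. Without control 1 there were 1052 calls among 14829 genes (7.09%), 593 higher (4.00%) and 459 lower (3.10%), and all 324 were among them with the same direction. With any other single liver left out the count lay between 186 and 388. Only 78 of the 324 changed by a log2 of 1 or more. The 2 groups of livers did not overlap for 218 of the 324 (67.3%), and for 342 of all 14685 genes (2.33%).

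**Figure D2:**
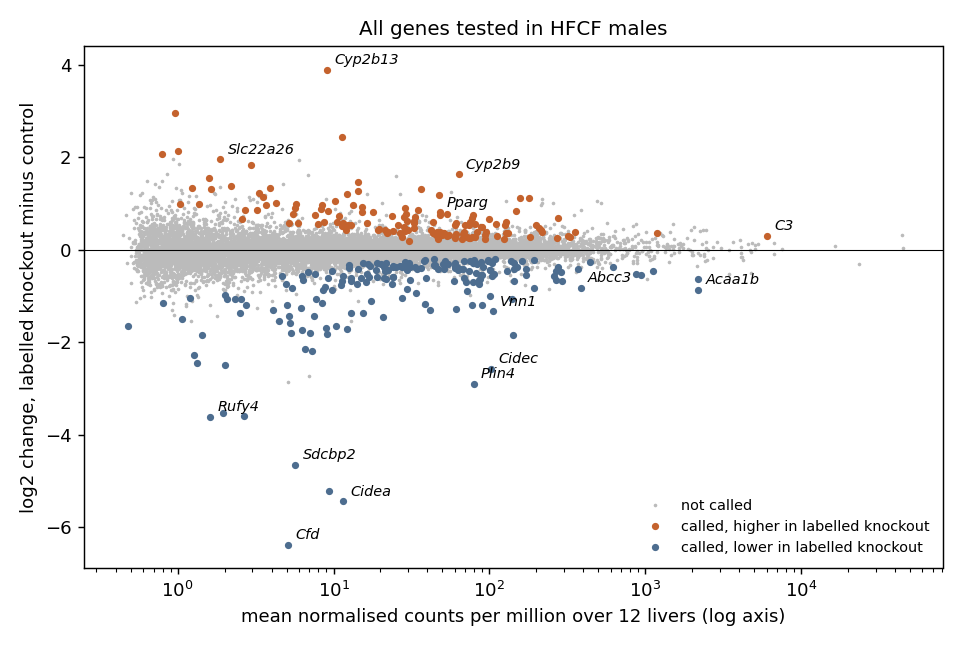
Log2 change (labelled knockout minus control, vertical) against mean CPM over the 12 livers (horizontal, log axis), 1 point per gene tested. The 137 called higher are orange, the 187 called lower are blue; Cfd, Cidea, Sdcbp2, Cidec and Plin4 lie far below the cloud, and Cyp2b13 is the highest called point.

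Genes of lipid droplets were among the deepest falls. Of the 19 lipid droplet genes tested, 8 fell and 0 rose, where 1.27% of all genes tested fell and 0.933% rose. Their median log2 change was -0.31, against -0.01 over all genes tested. Without control 1 the counts were again 8 and 0, against 3.10% and 4.00% of all genes.

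Cidea and Cidec encode CIDE proteins, which fuse small lipid droplets into large ones. Cidea measured 13.9 to 36.4 CPM in controls (median 21.2) and 0.217 to 1.002 CPM in labelled knockouts (median 0.295). That is 43.3-fold lower by the fit (log2 -5.44, SE 0.33, adjusted p = 5.94e-07). All 6 labelled knockouts lay far below the lowest control. Cidea overlaps an antisense gene, B430212C06Rik, whose 422 reads compare with 2419 for Cidea, and the libraries kept no strand. Cidec (chromosome 6, 113424634 to 113435760) lay between 166 and 188 CPM in controls and between 12.3 and 47.3 CPM in labelled knockouts, with medians of 172 and 28.7. Cidec fell by 2.57 on the log2 scale (SE 0.24, adjusted p = 4.27e-05). The controls were tightly grouped, the labelled knockouts spread more widely, and labelled knockout 6 was the lowest. Clstn3, whose adipocyte isoform restrains CIDE fusion, fell from 53.3 ± 12.9 to 23.6 ± 4.36 CPM (log2 -1.18, adjusted p = 0.000691). The third CIDE gene, Cideb, which hepatocytes express without fat loading, measured 50.7 ± 10.1 CPM in controls and 54.6 ± 1.71 CPM in labelled knockouts and was not called (adjusted p = 0.714).

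The perilipins, which coat droplets and gate their breakdown, differed among themselves. Plin4 (chromosome 17, 56100591 to 56109803) had the smallest adjusted p of all genes. Plin4 lay between 124 and 160 CPM in controls and between 10.6 and 23.98 CPM in labelled knockouts, with medians of 139 and 19.1. No labelled knockout came near a control, and the fit put Plin4 7.44-fold lower (log2 -2.90, SE 0.15, adjusted p = 1.08e-07). Plin4 overlaps Hdgfl2 on the other strand, which had 7700 reads against 16764 for Plin4. Plin5, which links droplets to mitochondria, fell from 69.6 ± 4.04 to 54.0 ± 7.28 CPM (log2 -0.37, SE 0.08, adjusted p = 0.03), and its call was lost in 5 of the 12 fits with 1 liver left out (highest adjusted p = 0.0709). Plin2, the main droplet coat of fatty hepatocytes, measured 967 ± 132 CPM and 790 ± 112 CPM and was not called (log2 -0.29, adjusted p = 0.194). Plin3 measured 99.2 and 101 CPM (adjusted p = 0.913). Plin1 was not among the genes tested.

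Fitm1 and Fitm2 encode proteins that help droplets bud from the endoplasmic reticulum. Fitm1 fell from 59.4 ± 18.6 to 24.1 ± 4.29 CPM (log2 -1.30, adjusted p = 0.000925), and Fitm2 from 106 ± 14.8 to 68.1 ± 8.29 CPM (log2 -0.64, adjusted p = 0.00252). Pnpla2, which encodes the lipase ATGL that starts triglyceride breakdown, fell from 117 ± 11.96 to 86.4 ± 5.70 CPM (log2 -0.43, adjusted p = 0.00383). The groups did not overlap for any of these 3 genes. Of the other droplet genes, Hsd17b13 (log2 -0.01), G0s2 (log2 -0.17) and Mgll (log2 -0.31, adjusted p = 0.0737) were not called.

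**Figure D3:**
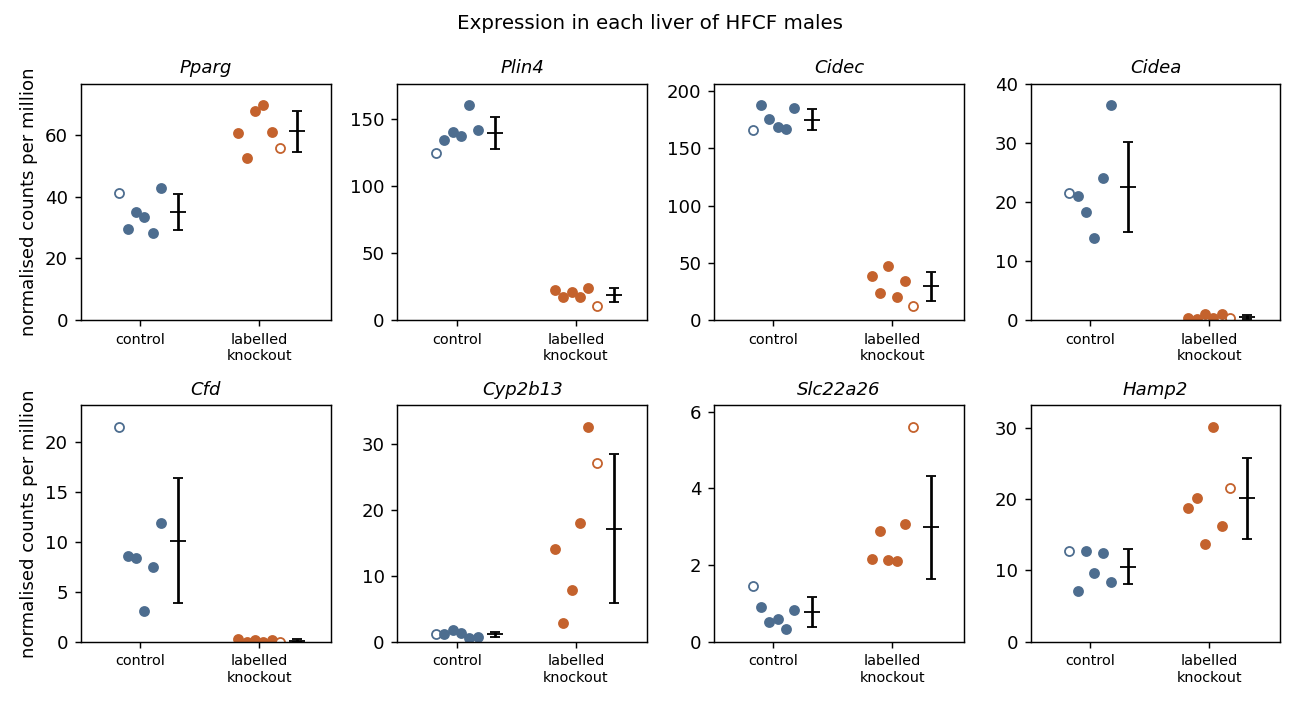
Level in CPM in each liver (vertical, linear axes from 0) for 8 genes, controls in blue and labelled knockouts in orange, with the mean and SD beside each group; open circles are control 1 and labelled knockout 6. Pparg is higher in all 6 labelled knockouts, Plin4, Cidec, Cidea and Cfd are lower in all 6, and Cyp2b13, Slc22a26 and Hamp2 are higher in all 6. Groups without overlap were a condition for naming the largest rises and falls.

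Genes for fatty acid uptake and triglyceride synthesis changed in part. Of 31 tested, 5 fell and 0 rose (median log2 -0.12), against 1.27% and 0.933% of all genes tested. Mogat1, which makes diacylglycerol from monoacylglycerol, lay between 3.99 and 11.01 CPM in controls and between 1.74 and 2.82 CPM in labelled knockouts (log2 -1.30, adjusted p = 0.00922). Gpd1, which makes the glycerol-3-phosphate backbone, fell from 361 ± 66.5 to 227 ± 19.5 CPM (log2 -0.67, adjusted p = 0.00338). Neither gene overlapped between the groups. Gpat3, which starts glycerolipid synthesis, fell from 20.2 ± 3.36 to 13.5 ± 2.34 CPM (log2 -0.58, adjusted p = 0.03), and its call was lost in 6 of 12 fits with 1 liver left out (highest adjusted p = 0.0787).

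Lpl and Aqp7 depended on control 1. Lpl, the lipase that frees fatty acids from lipoproteins, lay between 108 and 350 CPM in controls and between 126 and 169 CPM in labelled knockouts. Control 1 was the lowest of the controls for Lpl, at 108 CPM. With all 12 livers Lpl changed by a log2 of -0.83 (adjusted p = 0.0398), and without control 1 by -0.98 (adjusted p = 4.67e-05). Lpl was called in only 1 of the 12 fits with 1 liver left out, the one without control 1. Aqp7, a glycerol channel, measured 0.923 CPM in control 1 and up to 10.0 CPM in the other controls, against 1.69 to 3.20 CPM in labelled knockouts. Aqp7 changed by a log2 of -1.54 (adjusted p = 0.0414), and by -1.76 without control 1 (adjusted p = 2.74e-05). The call was lost in 10 of the 12 fits. Without control 1, 6 of this list fell and 2 rose, against 3.10% and 4.00% of all genes.

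Well-known uptake genes were not called. The fatty acid translocase Cd36 measured 306 ± 30.7 CPM in controls and 302 ± 14.7 CPM in labelled knockouts (log2 -0.02, SE 0.07, adjusted p = 0.943). Fabp1, the liver fatty acid binding protein, had a log2 change of -0.12 (adjusted p = 0.735), and Acsl1, an acyl-CoA synthetase, of 0.00 (adjusted p = 0.999). Fabp4, an adipocyte fatty acid binding protein, measured 29.9 ± 8.04 and 23.9 ± 3.98 CPM (adjusted p = 0.39).

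Cfd, which encodes adipsin, a complement protease made mainly by adipocytes, had the largest fall of all genes tested. Cfd lay between 3.06 and 21.5 CPM in controls (median 8.47) and between 0 and 0.298 CPM in labelled knockouts (median 0.0939). The 6 controls held 1038 reads and the 6 labelled knockouts 12. Its log2 change was -6.38 (SE 0.61, adjusted p = 5.58e-05), and -6.01 without control 1, the highest control. Cfd is 1 of 5 listed adipocyte markers, and their sum ran from 939 to 2084 CPM in controls and from 575 to 1021 CPM in labelled knockouts. Most of that sum was Car3, a carbonic anhydrase, which was not called (log2 -0.63, adjusted p = 0.103). The part of adipocyte RNA in the result was not tested.

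Genes outside the lipid lists also fell steeply. Sdcbp2, which encodes the scaffold syntenin-2, lay between 10.6 and 14.6 CPM in 5 controls, at 1.58 CPM in control 1, and between 0.0583 and 0.689 CPM in labelled knockouts. Sdcbp2 fell by 4.65 on the log2 scale (SE 0.49, adjusted p = 0.000121), with a log2 change of -4.88 without control 1 (adjusted p = 2.09e-08). Rufy4, a RUN and FYVE domain protein tied to autophagosomes, lay between 2.15 and 4.09 CPM in controls and between 0.0543 and 0.424 CPM in labelled knockouts (log2 -3.61, adjusted p = 5.58e-05). Both were named only among genes whose groups did not overlap, so low values in every labelled knockout came with that choice.

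The other named falls were smaller. Smad9, which carries BMP signals, fell from 11.9 ± 4.60 to 2.58 ± 1.14 CPM (4.54-fold lower, adjusted p = 0.00104). Kbtbd11, a kelch-repeat protein, was 4.45-fold lower (adjusted p = 0.000229). Hr, the hairless corepressor, was 3.50-fold lower (adjusted p = 0.000973), and Adgrg2, an adhesion G-protein-coupled receptor, 3.49-fold lower (adjusted p = 0.000184). Olig1, a basic helix-loop-helix factor known from glia, fell from 18.8 ± 6.20 to 5.68 ± 0.553 CPM (adjusted p = 9.41e-05). Gal3st1, which makes sulfatide, fell from 13.6 ± 1.79 to 4.17 ± 1.18 CPM (adjusted p = 6.48e-05). Slc13a4, a sulfate transporter, went from 1.58 to 0.553 CPM (adjusted p = 0.0325), and its call was lost in 7 of 12 fits with 1 liver left out.

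The major urinary protein genes Mup17 and Mup15 were both called lower, and both were shaped by control 1. Mup17 measured 15.63 CPM in control 1 and 1.72 to 4.15 CPM in the other controls, against 0 to 0.706 CPM in labelled knockouts. Its log2 change was -3.60 with control 1 and -2.80 without it (adjusted p = 0.00952 and 0.00128). Mup15 measured 14.1 CPM in control 1 and 0.94 to 2.39 CPM in the other controls. Its log2 change was -3.54 with control 1 and -2.28 without it (adjusted p = 0.0359 and 0.00893), and the call was lost in 7 of the 12 fits with 1 liver left out. Mup genes are near-identical copies, so reads may have been split or discarded among them.

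A minority of the fatty acid oxidation genes fell. Of 32 tested, 5 fell and 0 rose (median log2 -0.14), against 1.27% and 0.933% of all genes tested. Without control 1, 8 fell and 1 rose, against 3.10% and 4.00% of all genes. Vnn1, a pantetheinase and known PPARα target, fell from 150 ± 21.9 to 59.5 ± 7.98 CPM, 2.52-fold by the fit (log2 -1.33, SE 0.11, adjusted p = 1.20e-05). The lowest control stood at 116 CPM and the highest labelled knockout at 71.5. Acaa1b, a peroxisomal thiolase and 1 of the most abundant called transcripts, fell from 2831 ± 742 to 1551 ± 182 CPM (log2 -0.87, adjusted p = 0.00396). Eci1, an enoyl-CoA isomerase, fell from 150 ± 21.1 to 109 ± 5.79 CPM (log2 -0.46, adjusted p = 0.00683). Acaa1a fell with an adjusted p of 0.0356 (log2 -0.47), and its call was lost in 8 of 12 fits.

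Control 1 was the highest of the controls for these 4 genes. Each was still called without it, with log2 changes between -1.28 for Vnn1 and -0.36 for Acaa1a. Acaa1b, for one, moved from -0.87 to -0.71. The core mitochondrial genes Cpt1a (log2 0.02, adjusted p = 0.937) and Acadm (log2 -0.18, adjusted p = 0.283) were not called.

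Among the receptors and their partners only Pparg was called, 1 of 18 tested, where 2.21% of all genes tested were called. Ppara measured 191 ± 26.7 and 216 ± 25.0 CPM (adjusted p = 0.456), Rxra 542 ± 58.3 and 557 ± 37.3 CPM (adjusted p = 0.871), and the coactivator Ppargc1a 11.5 ± 1.32 and 12.9 ± 1.29 CPM (adjusted p = 0.485). Without control 1, 3 of the 18 were called higher, against 4.00% of all genes. With labelled knockout 6 also left out, 1 of the 18 was called higher, against 474 of all 14767 genes.

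The largest rise was in Cyp2b13, a cytochrome P450 that female mouse livers normally express far above male ones. Cyp2b13 lay between 0.610 and 1.72 CPM in controls and between 2.83 and 32.6 CPM in labelled knockouts, with medians of 1.22 and 16.1. The groups did not overlap, which the rule for naming large rises required, and the labelled knockouts were spread widely. The fit put Cyp2b13 14.9-fold higher (log2 3.89, SE 0.51, adjusted p = 0.000805). Its neighbour Cyp2b9, also female-biased, lay between 14.1 and 58.6 CPM in controls and between 64.8 and 147 CPM in labelled knockouts (log2 1.63, SE 0.32, adjusted p = 0.0153). Slc22a26, an organic anion transporter with the same sex bias, rose from 0.773 ± 0.393 to 2.99 ± 1.35 CPM (log2 1.96, adjusted p = 0.00605).

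Cyp2b13 and Cyp2b9 are close copies, and their start regions are shown because they rose together and can hardly be told apart. The RefSeq sequences of GRCm38.p6 cover the 150 bases before each start, chr7:26061345-26061494 and chr7:26173259-26173408, both on the plus strand. They are identical at 149 of 150 aligned bases (99.3%), and the capital marks the 1 that differs.
Cyp2b13: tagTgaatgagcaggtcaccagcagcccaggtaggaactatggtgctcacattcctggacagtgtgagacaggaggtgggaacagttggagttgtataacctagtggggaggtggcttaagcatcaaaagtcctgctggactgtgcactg
Cyp2b9: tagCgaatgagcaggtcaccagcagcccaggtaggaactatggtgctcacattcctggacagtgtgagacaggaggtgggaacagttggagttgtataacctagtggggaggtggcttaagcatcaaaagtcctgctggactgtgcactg
Reads that fit both genes may have been discarded or shared in the authors' counting, so the split between the pair is uncertain.

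The sex-biased lists as a whole did not move one way. Of 14 female-biased genes tested, 3 rose, the 3 just named, and 0 fell. Of 22 male-biased genes, Susd4, C8b and Gna14 rose and Serpina1e fell. Over all genes tested 0.933% rose and 1.27% fell. Without control 1, 3 female-biased and 7 male-biased genes rose and 0 and 1 fell, against 4.00% and 3.10% of all genes. The call of Gna14, a G-protein subunit (log2 0.78, adjusted p = 0.0318), was lost in 8 of 12 fits (highest adjusted p = 0.0781). Susd4, a complement regulator, rose from 7.71 ± 3.38 to 21.2 ± 5.32 CPM (log2 1.46, adjusted p = 0.00496), and C8b, a subunit of the membrane attack complex, from 60.2 ± 8.26 to 90.8 ± 12.1 CPM (log2 0.59, adjusted p = 0.00613). Serpina1e, an antitrypsin gene, fell from 108 ± 41.6 to 47.0 ± 15.7 CPM (log2 -1.20, adjusted p = 0.0219), with its call lost in 3 of 12 fits. The classic male genes Mup20 (log2 -0.13, adjusted p = 0.711) and Cyp4a12a (log2 -0.60, adjusted p = 0.445) were not called. Cyp17a1, a female-biased gene, was not called either (log2 0.23, adjusted p = 0.743).

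Drug-metabolising genes leaned upward. Of 30 P450 genes of families 1 to 3, 5 rose and 1 fell, against 0.933% and 1.27% of all genes tested. A positive log2 change was seen in 27 of the 30 (median 0.49), against 7106 of all 14685 genes. Besides the Cyp2b pair, Cyp1a2, which handles aromatic amines, rose from 113 ± 52.3 to 246 ± 58.8 CPM (log2 1.12, adjusted p = 0.0228). The groups overlapped for Cyp1a2, and the call was lost in 8 of 12 fits. Cyp3a59 (log2 0.74, adjusted p = 0.0392) and Cyp2c67 (log2 0.53, adjusted p = 0.0473) lost theirs in 9 and 10 of the 12. Cyp3a11, the abundant P450 that oxidises many drugs and bile acids, went the other way, from 2644 ± 290 to 1694 ± 311 CPM (log2 -0.64, SE 0.12, adjusted p = 0.00921) with no overlap between the groups.

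Conjugation and transport genes gave 5 rises and 0 falls among 38 tested (median log2 0.24), against 0.933% and 1.27% of all genes tested. Gsta1 and Gsta2 encode closely related glutathione transferases. Gsta1 rose from 9.11 ± 1.99 to 17.7 ± 4.16 CPM (log2 0.96, adjusted p = 0.00541) and Gsta2 from 20.1 ± 5.62 to 37.6 ± 4.64 CPM (log2 0.91, adjusted p = 0.00376). Neither overlapped between the groups, which the rule for large rises required of Gsta1. With all 4 male groups in one fit Gsta1 was not called (adjusted p = 0.102). Gstm2 rose by a log2 of 0.84 (adjusted p = 0.0119) and Gstm3 by 0.69 (adjusted p = 0.0398), the latter with its call lost in 9 of 12 fits. Slco2a1, a prostaglandin transporter, rose from 25.3 ± 3.72 to 41.4 ± 3.64 CPM (log2 0.72, adjusted p = 0.000715). As paralogs, the transferases share sequence, and reads may have been split among them.

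The counts in both lists rested on control 1. Without it, 17 of the 30 P450 genes and 17 of the 38 conjugation and transport genes were higher, and 1 and 0 were lower. With labelled knockout 6 also left out the counts were 17 and 16 higher. Of all genes, 4.00% were higher and 3.10% lower without control 1, and 474 of 14767 were higher without both livers. Cyp2c29 lay between 174 and 834 CPM in controls and had a log2 change of 1.06 with all livers (adjusted p = 0.152) and 1.64 without control 1 (adjusted p = 5.73e-05). Cyp2c54 (log2 2.13, adjusted p = 6.42e-05), Cyp2c50 (log2 1.16, adjusted p = 0.000239) and the sulfotransferase Sult2a8 (log2 1.56, adjusted p = 0.000165) were likewise called only without control 1. So were the amylase Amy1, the thioesterase Acot11 and the heme enzyme Alas2.

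Bile acid genes changed in both directions. Of 21 tested, 2 rose and 1 fell, against 0.933% and 1.27% of all genes tested. Akr1d1, a reductase that shapes the bile acid ring, rose from 98.3 ± 33.5 to 214 ± 64.8 CPM (log2 1.12, adjusted p = 0.00958), and Slco1a4, an uptake carrier, from 58.3 ± 10.4 to 97.7 ± 27.8 CPM (log2 0.74, adjusted p = 0.0274). The Slco1a4 call was lost in 6 of 12 fits. Abcc3, which exports conjugated bile acids to blood, fell from 491 ± 73.8 to 278 ± 18.2 CPM with no overlap (log2 -0.82, SE 0.09, adjusted p = 0.000185). Cyp7a1, the rate-limiting enzyme of bile acid synthesis, measured 168 ± 62.8 and 340 ± 104 CPM and narrowly missed the threshold (log2 1.02, adjusted p = 0.0549); without control 1 it was called (log2 1.14, adjusted p = 0.0149). Without control 1, 8 of the list were higher and 2 lower, against 4.00% and 3.10% of all genes.

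No gene of cholesterol synthesis was called (0 of 25), although all 25 had a positive log2 change and 13 had an unadjusted p under 0.05. Over all 14685 genes tested, 7106 had a positive log2 change and 2085 an unadjusted p under 0.05. The median log2 change of the 25 was 0.43. Sqle, the squalene epoxidase, measured 16.3 ± 6.17 CPM in controls and 37.3 ± 26.8 CPM in labelled knockouts (adjusted p = 0.113). These genes are regulated together, so the 25 signs are not independent. Without control 1, 6 were called higher, and with labelled knockout 6 also left out, 2. Of all genes, 4.00% were called higher without control 1, and 474 of 14767 without both livers. De novo lipogenesis gave 0 calls among 18: Scd1, a desaturase and the most abundant of them, measured 44640 ± 14000 and 46030 ± 10710 CPM (adjusted p = 0.952), and Fasn, the fatty acid synthase, 1010 ± 396 and 1188 ± 761 CPM (adjusted p = 0.838).

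**Figure D4:**
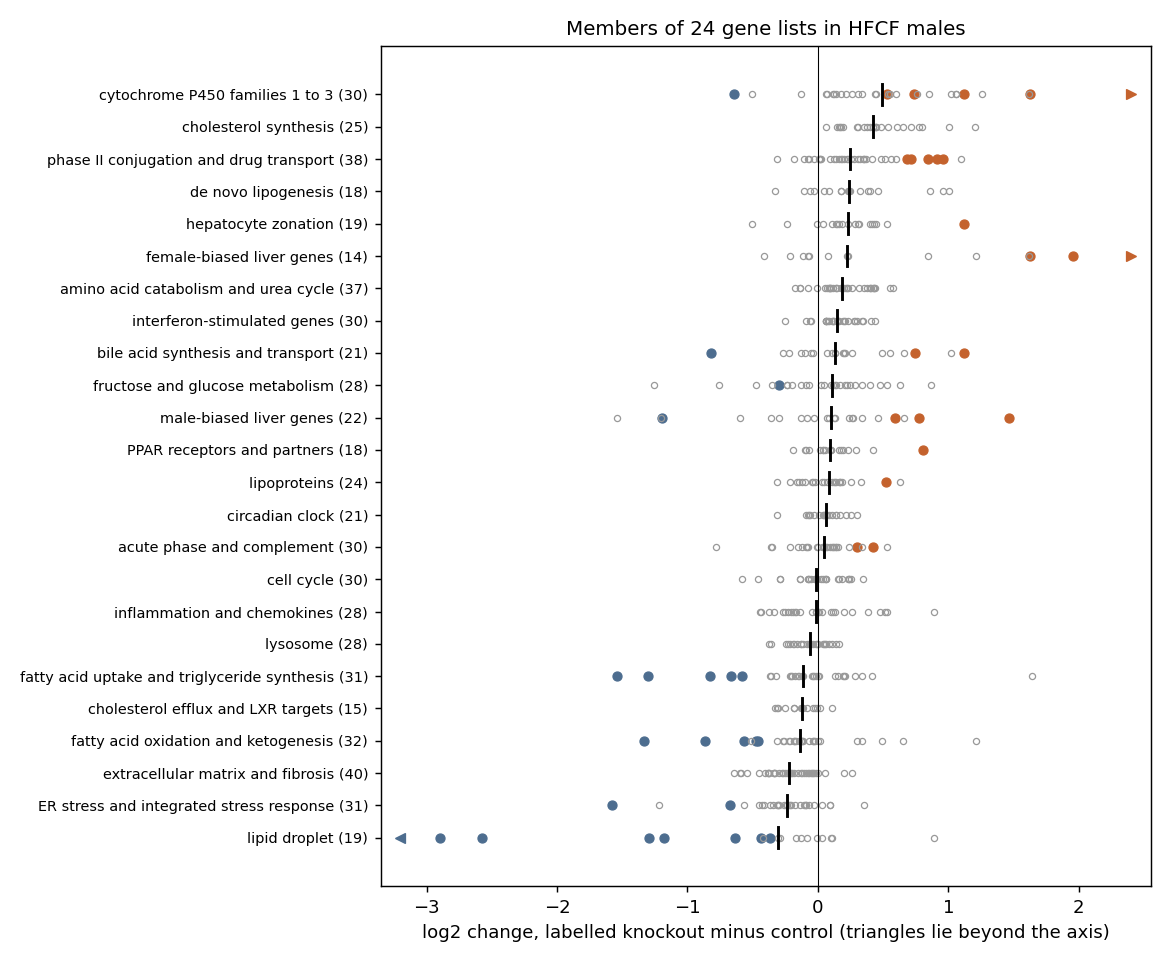
Log2 change (labelled knockout minus control, horizontal) of each tested member of 24 gene lists, with the number tested in brackets and the median as a black bar. Filled points passed the test (orange higher, blue lower), open points did not, and triangles lie beyond the axis; the lipid droplet list has the lowest median, -0.31, and the P450 list the highest, 0.49.

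The hepcidin genes moved apart. Hamp2, named by the rule for large rises, lay between 7.16 and 12.8 CPM in controls and between 13.7 and 30.1 CPM in labelled knockouts (log2 0.93, SE 0.19, adjusted p = 0.0168), and lost its call in 1 of the 12 fits with 1 liver left out, that without control 6 (adjusted p = 0.0515). Hamp2 was also not called with all 4 male groups in one fit (adjusted p = 0.456) or with labelled knockouts 1 to 3 only (adjusted p = 0.205). Hamp, the hormone that lowers blood iron, was chosen for comparison after its values were seen. Hamp ranged from 36.0 to 361 CPM in controls (median 244) and from 33.2 to 105 CPM in labelled knockouts (median 59.9), a fall of 3.61-fold by the fit (adjusted p = 0.0274). For Hamp the groups overlapped, with the lowest control among the labelled knockouts.

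The 150 bases before the starts of this pair are shown because similar start regions accompanied opposite changes. In RefSeq for GRCm38.p6 they lie at chr7:30944030-30944179 for Hamp and chr7:30924182-30924331 for Hamp2, both on the minus strand. They aligned over 147 bases and were identical at 135 (91.8%), and capitals mark bases that differ or have no partner.
Hamp: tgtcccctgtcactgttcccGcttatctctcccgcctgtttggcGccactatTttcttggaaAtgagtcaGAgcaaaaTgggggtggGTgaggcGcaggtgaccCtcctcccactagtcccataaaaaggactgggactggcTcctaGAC
Hamp2: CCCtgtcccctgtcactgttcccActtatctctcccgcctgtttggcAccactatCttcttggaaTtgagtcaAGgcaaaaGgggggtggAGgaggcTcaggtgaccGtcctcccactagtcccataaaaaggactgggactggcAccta
The Cyp2b pair shown above thus differed less from each other than the hepcidin pair did. The Hamp2 stretch lies inside the Hamp2 gene as counted (30922372 to 30924681), so the RefSeq start differs from that of the counted gene. Reads that fit both hepcidin genes may have been discarded or shared in the counting.

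The other called rises were of mixed kinds. Rdh16f2, a retinol dehydrogenase, rose from 20.9 ± 4.82 to 51.8 ± 12.6 CPM (log2 1.31, adjusted p = 0.000973), Mmd2, a membrane protein of the progestin and adipoQ receptor family, from 7.45 ± 1.43 to 17.1 ± 5.08 CPM (log2 1.20, adjusted p = 0.00319), and Kcp, a secreted modulator of BMP signals, from 6.68 ± 1.59 to 13.8 ± 2.11 CPM (log2 1.05, adjusted p = 0.00134). Clic5, Chic1, Nfe2 and Lrtm2 rose by log2 values between 0.97 for Lrtm2 and 1.37 for Chic1. Nfe2 and Lrtm2 were not called with all 4 male groups in one fit (adjusted p = 0.293 and 0.103). Atp2b2, a calcium pump, had the log2 change 1.82 (adjusted p = 0.0319), with 10.5 CPM in labelled knockout 6 and 2.44 to 4.65 CPM in the other 5. Its call was lost in 6 of 12 fits, and that of Spink1, a trypsin inhibitor (log2 1.56, adjusted p = 0.03), in 5.

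Among the most abundant called genes the changes were modest. C3, the central complement protein, measured 5417 ± 302 CPM in controls and 6683 ± 296 CPM in labelled knockouts without overlap (log2 0.30, adjusted p = 0.0422), a call lost in 10 of 12 fits. Pcx, the pyruvate carboxylase that feeds gluconeogenesis, fell from 1028 ± 147 to 712 ± 42.6 CPM (log2 -0.53, adjusted p = 0.00571), and Aldh3a2, which oxidises fatty aldehydes, from 1111 ± 158 to 755 ± 61.8 CPM (log2 -0.56, adjusted p = 0.0057). Nat8f2 (log2 0.35), Ces3a (log2 -0.46), Slc25a47 (log2 -0.37) and Tmem56 (log2 -0.26) overlapped between the groups and lost their calls in 8 or 9 of 12 fits.

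Matrix, inflammation and interferon genes gave no calls with all 12 livers: 0 of 40, 0 of 28 and 0 of 30 tested, with 3, 1 and 2 at an unadjusted p under 0.05. DESeq2's Wald test called 1, 0 and 0 of them. The main test called 2.21% of all genes, and 2085 of all 14685 had an unadjusted p under 0.05. Col1a1, the main fibril collagen, measured 230 ± 64.4 CPM in controls and 176 ± 52.4 CPM in labelled knockouts (log2 -0.38, adjusted p = 0.504). Of the 40 matrix genes 36 had a negative log2 change (median -0.22), against 7579 of all 14685 genes. Control 1, the lowest control for Col1a1 at 98.5 CPM, weighed on this: without it 7 matrix genes were lower and 1 higher, though not Col1a1 (log2 -0.54, adjusted p = 0.0626). Over all genes, 3.10% were lower and 4.00% higher without control 1. With labelled knockout 6 also left out, 7 matrix genes were lower and 2 higher, against 374 and 474 of all 14767 genes.

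Macrophage genes showed the same dependence. Of 9 markers of monocytes and lipid-associated macrophages 0 were called with all livers, and 3 were lower without control 1. These were Trem2, the receptor that defines the cells (log2 -0.78, adjusted p = 0.00825), Gpnmb (log2 -0.82, adjusted p = 0.0106) and Lgals3, which encodes galectin-3 (log2 -0.83, adjusted p = 0.00055). Lgals3 ranged from 19.5 to 67.4 CPM in controls and from 24.1 to 42.7 CPM in labelled knockouts. Over all genes, 3.10% were lower without control 1. With labelled knockout 6 also left out, 3 of the 9 markers were lower, against 374 of all 14767 genes. Of 7 Kupffer cell markers, Clec4f, a lectin of resident Kupffer cells, was higher (102 ± 23.0 and 154 ± 22.0 CPM, log2 0.61, adjusted p = 0.0274), and its call was lost in 7 of 12 fits. Of all genes tested with the 12 livers, 0.933% were higher. The whole Kupffer sum ran from 389.5 to 776 CPM in controls and from 539.7 to 912 CPM in labelled knockouts. The part of cell composition in these results was not tested.

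Stress, glucose and remaining lists held few calls. Of all genes tested 2.21% were called, so 1 call in 28 or in 24 genes lies near that share. Trib3 and Chac1, targets of the integrated stress response, fell, 2 of 31 tested. Of the 31, 27 had a negative log2 change (median -0.235) and 12 an unadjusted p under 0.05. Over all 14685 genes 7579 and 2085 did. Without control 1, 5 of the 31 were called lower and 0 higher, against 3.10% and 4.00% of all genes. With labelled knockout 6 also left out, 5 of the 31 were lower and 0 higher. Trib3 went from 16.0 ± 2.90 to 10.0 ± 1.89 CPM (log2 -0.68, adjusted p = 0.0212) and Chac1 from 7.90 ± 2.72 to 2.63 ± 1.57 CPM (log2 -1.58, adjusted p = 0.0238), with calls lost in 2 and 6 of 12 fits. Asns, an asparagine synthetase, had a log2 change of -1.21 (adjusted p = 0.0855). Taldo1, of the pentose phosphate path, was the 1 call of 28 in fructose and glucose metabolism (log2 -0.30, adjusted p = 0.0356), and it was lost in 8 of 12 fits (highest adjusted p = 0.0961). Serpina3m was the other acute phase call beside C3, 2 of 30 (log2 0.42, adjusted p = 0.0314). Serpina3m lost its call in 8 of 12 fits (highest adjusted p = 0.0761) and overlaps its paralog Serpina3k. Tm6sf2, which loads lipid onto lipoproteins, was 1 of 24 (log2 0.53, adjusted p = 0.0481), with its call lost in 10 of 12 fits (highest adjusted p = 0.109). Amino acid catabolism gave 0 calls among 37 with all livers and 13, all higher, without control 1. Without that liver 4.00% of all genes were higher. With labelled knockout 6 also left out 12 of the 37 were higher, against 474 of all 14767 genes.

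Whether the effect on the HFCF diet differed from that on the HF diet was tested by an interaction over all 24 male livers, with CPM scaled over those 24. The interaction was called for 235 of 15096 genes (1.56%), 149 more positive and 86 more negative on the HFCF diet. Of the 235, 33 were also among the 324 called in HFCF males.

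Cidec was among the 33. On the HF diet Cidec lay between 116 and 160 CPM in controls and between 4.58 and 6.56 CPM in labelled knockouts. On the HFCF diet it lay between 157 and 178 CPM in controls and between 11.5 and 45.0 CPM in labelled knockouts. The fall was thus smaller on the HFCF diet (interaction log2 2.10, SE 0.28, adjusted p = 0.000236). Plin4 gave the same order, with labelled-knockout means of 10.1 CPM on HF and 17.7 CPM on HFCF (interaction log2 0.99, adjusted p = 0.0393). For the interaction, Cidea (log2 0.54, adjusted p = 0.725) and Cfd (log2 0.42, adjusted p = 0.893) were not called.

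Other genes whose labelled knockouts were lower on HF differed less between the groups on HFCF. Osbpl3, an oxysterol-binding protein, averaged 102 CPM (control) and 13.4 CPM (labelled knockout) on HF, and 109.5 and 87.8 CPM on HFCF (interaction log2 2.61, adjusted p = 2.40e-06). Within HFCF males alone Osbpl3 was not called (adjusted p = 0.249). Gprc5b, an orphan receptor, went from 24.9 to 2.01 CPM on HF and from 10.5 to 3.82 CPM on HFCF (interaction log2 2.18, adjusted p = 0.000236). Gprc5b was called lower within HFCF males (log2 -1.44, adjusted p = 0.0032). The thioesterase Acot2 averaged 29.6 and 10.8 CPM on HF and 25.8 and 25.7 CPM on HFCF (interaction log2 1.44, adjusted p = 0.00217).

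For some genes the group means differed in opposite directions on the diets. Cela1, an elastase, averaged 14.1 CPM (control) and 32.3 CPM (labelled knockout) on HF, and 13.4 and 7.85 CPM on HFCF (interaction log2 -1.96, adjusted p = 0.000236). Serpina1e averaged 122 and 362 CPM on HF and 103 and 44.3 CPM on HFCF (interaction log2 -2.78, adjusted p = 0.0254). Gsta1 averaged 10.2 and 3.70 CPM on HF and 8.63 and 16.7 CPM on HFCF (interaction log2 2.41, adjusted p = 0.00749). Pparg itself averaged 35.0 and 42.1 CPM on HF and 33.2 and 57.6 CPM on HFCF, and its interaction was not called (log2 0.53, adjusted p = 0.246).

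**Figure D5:**
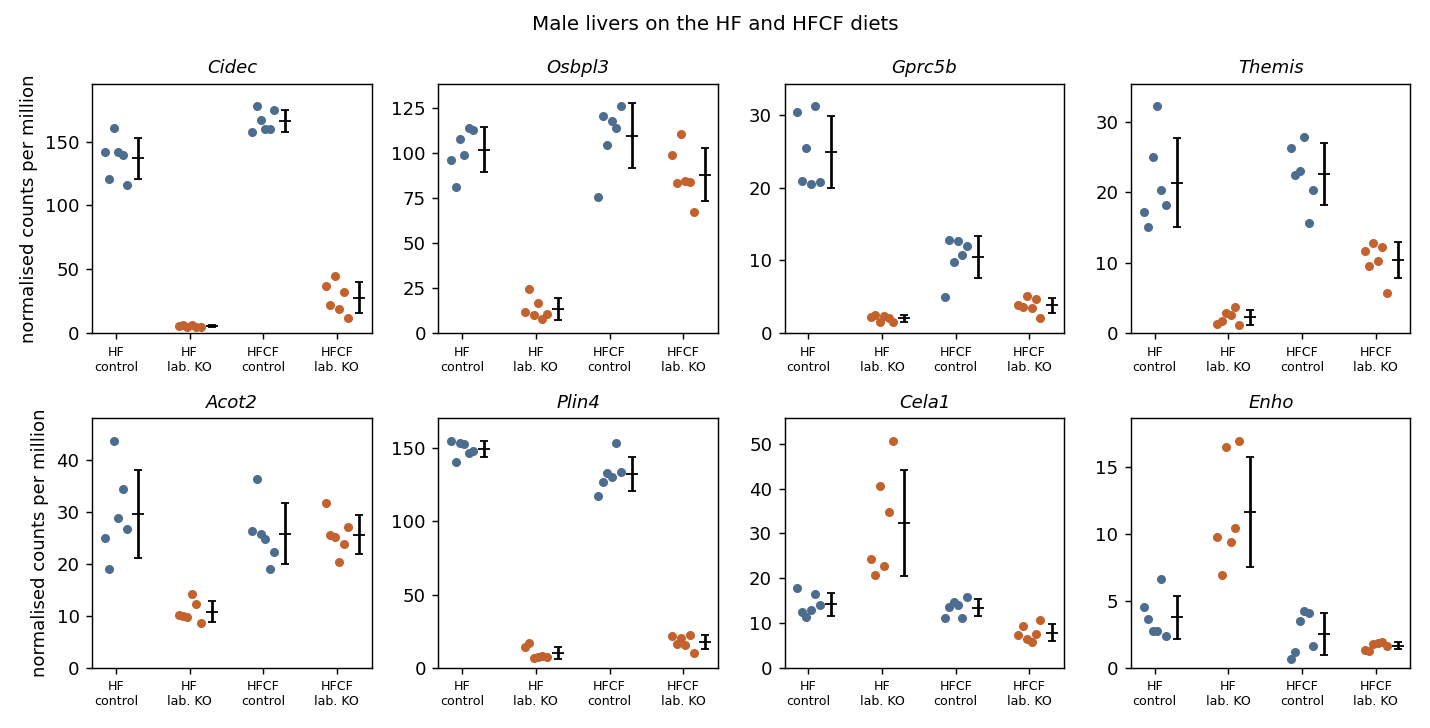
Level in CPM (vertical, linear axes from 0) in each of 24 male livers for 8 genes, by diet and group, controls in blue and labelled knockouts in orange, with mean and SD beside each group. Cidec and Plin4 are lowest in HF labelled knockouts, Osbpl3 averages 13.4 there and 87.8 in HFCF labelled knockouts, and Cela1 and Enho are highest in HF labelled knockouts.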

How the data were processed

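Per the submitters' processing notes, the authors' tools included STAR 2.6.1, HTSeq 0.6.1 and DESeq2, with builds GRCm38 and mm10. The deposited counts are whole reads per gene, not normalized. The authors' deposited log2 fold changes and adjusted p-values served for comparison only: 660 genes had an adjusted p under 0.05 there, including all 324 called here, with the same direction. The other deposited tables of males were joined by gene for the interaction; of 590130 repeated values 0 differed. The libraries were not strand specific, per the labels' protocols.

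Genes were kept by filterByExpr, scaled by TMM and tested with edgeR 4.0.16 (R 4.3.3) by the quasi-likelihood F test on the 6 against 6 livers, with Benjamini-Hochberg adjustment over all genes tested. The fitted biological coefficient of variation was 0.147. Reads per library, 15636810 to 20934169, set the precision of low genes. The script was tested on simulated data with known changes. P-values of this test weigh the difference between the groups against the spread between livers. DESeq2 1.42.0 was an alternative. Promoter sequences are from RefSeq (GRCm38.p6), matched by symbol.

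Named by rule were Pparg, the 15 largest rises and 15 largest falls of called genes whose groups did not overlap (mean level 1 CPM or more, predicted genes left out), the 10 most abundant called genes, called members of 24 pathway and 14 marker lists, up to 4 abundant uncalled members per list, and up to 10 genes in each direction for the interaction and for calls only without control 1. Cideb, Plin3, Cd36, Acadm, Ppargc1a, Cyp4a12a, Cyp7a1, Sqle, Asns, Trem2 and Hamp lie outside the rule and were chosen after their values were seen. Some named items are not reported here. Members and lists were chosen with earlier results of these data known.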

Additional observations from a re-analysis of the deposited data

Results flagged for a closer look

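Some livers lay far from the other 5 of their group by Dixon's test. Of 98 groups of values checked, 16 had such a liver, and in 10 it was control 1. A rate of about 1 in 20 groups would hold for independent, normally distributed values. These groups share livers and some marker genes, and include genes chosen from these data. The 16 therefore cannot be weighed against that rate. Control 1 stood at -48.61 on the first principal component of all genes, against 8.84 to 26.37 in the other controls. Its summed markers were low for monocytes and lipid-associated macrophages (267.7 CPM), stellate cells and fibroblasts (693.1 CPM) and cholangiocytes (171.3 CPM, against 515.4 to 617.5), and high for adipocytes (2084 CPM, against 938.8 to 1292).

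Among named genes, control 1 was low for Sdcbp2 (1.583 CPM) and Kbtbd11 (4.946 CPM, against 10.45 to 13.69). It was high for Mup17 (15.63 CPM), Mup15 (14.11 CPM) and Olig1 (30.73 CPM, against 13.16 to 18.63). Labelled knockout 6 had the lowest TMM factor of its group (0.9252, against 0.9853 to 1.021) and the highest share of reads on mitochondrial genes (5.008%, against 4.305% to 4.492%). It was the highest of its group for Slc22a26 (5.605 CPM, against 2.098 to 3.068) and Atp2b2 (10.48 CPM). Labelled knockout 1 was the highest for Kcp (17.94 CPM, against 12.21 to 14.08) and for the Kupffer cell sum (911.6 CPM, against 539.7 to 645.3).

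For 20 named genes the labelled-knockout effect differed between the diets by the interaction in edgeR's quasi-likelihood test, given here as log2, HFCF minus HF. It was more positive on HFCF for Osbpl3 (2.614), Cidec (2.098), Tgfbr2 (0.942), Gprc5b (2.177), Ly6d (3.25), Cdk6 (0.675), Slc35f2 (1.701), Themis (2.118), Defb1 (1.786) and Acot2 (1.438). It was more negative for Serpina11 (-0.993), Cela1 (-1.964), Nmral1 (-0.961), Arhgef10l (-0.525), Lsm6 (-0.536), Hspb8 (-0.632), Rps27 (-0.446), Enho (-2.279), U2af1 (-0.423) and Cyp4f13 (-0.448). Each of the 20 was called in all 24 fits that left out 1 liver. They were chosen for the smallest interaction p in each direction in these same livers, so these calls are not independent support.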

How the results depend on the processing

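Pparg kept its direction and its call under every setting run, with log2 changes from 0.75 to 0.89; with the replicate block it was 0.81 (adjusted p = 0.00698). The 324 calls became 666 with DESeq2's Wald test, 848 without control 1 and labelled knockout 6 (chosen after seeing the data), 78 with a log2 change of at least 1, and 65 with labelled knockouts 1 to 3 only, whose animal numbers lie within the range of the controls (fewer samples). Leaving out 1 liver gave 186 (labelled knockout 5) to 1052 (control 1). The share of calls that were higher was 42.3% with all 12 livers, 56.4% without control 1, 55.9% without both, 23.1% with labelled knockouts 1 to 3 and 33.9% with the replicate block. The 235 interaction calls became 600 with the Wald test, 75 with a log2 value of at least 1, and 119 (HF control 3 left out) to 412 (HF control 2 left out). Replicate numbers did not pair the livers: same-numbered livers correlated between -0.134 and 0.107, and 1 of 6 correlated best with its own number. With the replicate block there were 165 calls, 151 of them shared, and 71 for the interaction. Of 73 called named genes besides Pparg, 45 kept their call in all 12 fits with 1 liver left out and 28 lost it in at least 1. The block lost 25 of the 73, and labelled knockouts 1 to 3 only lost 48. All 4 male groups in one fit gave 477 calls, 287 of them shared, and lost 10 of the 73: Nfe2, Lrtm2, Gsta1, Hamp2, C3, Tmem56, Serpina1e, Clec4f, Gstm3 and Cyp2c67. DESeq2's size factors and no filter on low counts lost 1 each. No direction reversed. Apart from the values above the cause was not tested.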

Other observations

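Mup7, a male-biased major urinary protein gene, changed sign with control 1. Its log2 change was -1.54 with all 12 livers (adjusted p = 0.649) and 2.98 without control 1 (adjusted p = 0.0421), where control 1 measured 112.3 CPM. Mup7 was chosen after its values were seen.

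Genes called only without control 1 also included Ugt2a3, a glucuronosyltransferase (log2 0.66), Snhg11 (1.07) and Fam19a2 (2.87), which were higher. Uap1l1 (log2 -0.84), Gdf10 (-0.68), Rad51b (-0.67), Tmcc3 (-0.38), Cln6 (-0.64), Endod1 (-0.59), Sort1, the sorting receptor sortilin (-0.79), and Msrb3 (-0.72) were lower. For each of these 8 lower genes control 1 was the lowest control and labelled knockout 6 the lowest of its group.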
